A study of Mus musculus with 15 samples.

Results

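The natriuretic peptide system is a set of 3 ligand genes and 3 receptor genes, and the 6 members, Nppa, Nppb, Nppc, Npr1, Npr2 and Npr3, were taken by name from the 16809 genes of a single-cell count table of the embryonic mouse heart. All 6 were present in the table. Whole hearts of C57BL6/N embryos were dissociated at E14.5 and profiled with Drop-seq, a droplet method in which barcoded beads bind the polyadenylated RNA of a single cell and molecules are counted by unique molecular identifiers (UMIs). Of the 15 libraries, 8 came from embryos homozygous for a knockout of Adamts19 (KO), the gene of a secreted metalloprotease, and 7 from wild-type embryos (WT). The question, as the title of the series puts it, is what loss of this protease does in a heart that goes on to develop valve disease.

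KO replicates 5 to 8 carried the allele labelled tm4b and came from litter 7, and KO replicates 1 to 4 carried the allele labelled tm4a, with replicate 1 from litter 5 and replicates 2 to 4 from litter 6. WT replicates 1 and 2 came from litter 1, replicates 3 and 4 from litter 2, replicate 5 from litter 3, and replicates 6 and 7 from litter 4. WT replicate 5 was run on the same flow cell as the 8 KO libraries, and the remaining 6 WT libraries on different ones. No litter held both genotypes or both alleles, so genotype and litter cannot be told apart, nor can allele and litter. The sources used here do not state the number of embryos behind a library or the deleted part of Adamts19, and p-values measure the spread between libraries.

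KO libraries held 5477109 to 10105950 UMIs and WT libraries 6215439 to 11340443. After filtering, 28366 KO and 22391 WT cells were kept, and 87 barcode sequences occurred in more than 1 library. Adamts19 lay at 5.02 to 8.74 CPM (UMIs of the gene, scaled to the same total in each library) in KO libraries, against 16.7 to 49.2 CPM in WT libraries, with no overlap. Since tags come from the 3′ end of transcripts, this does not check the deleted part. Cells were grouped into 12258 KO and 9304 WT cardiomyocyte-like cells and 15400 KO and 11585 WT cells of other named classes. Each class is called "like" because it rests on marker genes, and none of the 6 members was used as a marker or as a variable gene for clustering.

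Nppa and Nppb encode the precursors of atrial and brain natriuretic peptide, which heart muscle secretes and which promote salt excretion and relax blood vessels. Both act through the receptor encoded by Npr1, a guanylyl cyclase that raises cyclic GMP in the target cell, while C-type natriuretic peptide, encoded by Nppc and best known from endothelium, acts through the related cyclase encoded by Npr2. The receptor encoded by Npr3 has no cyclase domain and removes all of the peptides from the extracellular space. In the embryonic mouse heart Nppa is a classical marker of working muscle of the atria and of the ventricular trabeculae, and the T-box repressors Tbx2 and Tbx3 are known to keep it low in the atrioventricular canal and the node.

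In the GRCm38 annotation Nppb lies on chromosome 4 at 147985788 to 147987205 and Nppa at 148000722 to 148002079, both on the plus strand with 3 exons each. The 13516 bases between them hold 0 other annotated genes. Nppc lies on chromosome 1 at 86666291 to 86670571, Npr1 on chromosome 3 at 90450591 to 90465866 and Npr3 on chromosome 15 at 11839896 to 11907287, all on the minus strand. Npr2 lies on chromosome 4 at 43631935 to 43651244 on the plus strand. An antisense gene, Gm13054, overlaps 989 of the 1358 bases of the Nppa locus, and the sources used here do not state whether counting used the strand, so reads of Nppa and of Gm13054 cannot be told apart with certainty.

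The 250 bases before the RefSeq start sites of Nppa and Nppb are shown because the 2 neighbouring genes are both muscle genes with chamber-dependent levels here. Both are on the plus strand of GRCm38.p6, at chr4:148000472-148000721 for Nppa and chr4:147985650-147985899 for Nppb, and all 6 members had an entry in the RefSeq promoter table. The RefSeq start of Nppb, 147985900, lies downstream of the annotated start given above, so that 112 bases of its window are inside the annotated gene. Capitals mark matches on either strand to TCACACC, a T-box element; TNAAGTG, the element of Nkx2-5; GATAA, the core of a GATA site; CATTCC, the M-CAT element of TEAD factors (GGAATG on the other strand); and TATAAA.
Nppa: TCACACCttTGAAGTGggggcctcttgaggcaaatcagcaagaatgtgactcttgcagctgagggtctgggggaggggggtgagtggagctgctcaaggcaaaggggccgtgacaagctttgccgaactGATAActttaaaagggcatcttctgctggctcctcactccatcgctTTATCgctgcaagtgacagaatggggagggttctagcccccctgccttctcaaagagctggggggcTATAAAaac
Nppb: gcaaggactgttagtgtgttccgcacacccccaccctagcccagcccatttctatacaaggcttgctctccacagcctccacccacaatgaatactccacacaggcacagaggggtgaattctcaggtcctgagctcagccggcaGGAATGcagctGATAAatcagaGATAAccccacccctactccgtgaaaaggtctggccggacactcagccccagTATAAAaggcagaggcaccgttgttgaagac
The Nppa window held a T-box element at -250 to -244, counted from the start site, and a match to the Nkx2-5 element at -241 to -235. The Nppb window held neither, and held the M-CAT letters at -105 to -100. Both windows held GATAA and TATAAA, with TATAAA at -9 to -4 for Nppa and at -31 to -26 for Nppb. Among 32851 windows of this length, 3.33% held TCACACC, 10.1% TNAAGTG, 22.6% GATAA, 12.6% CATTCC and 12.4% TATAAA. These matches describe the letters and show no binding.

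Nppa was a muscle transcript concentrated in the atria and the trabeculae, in both genotypes. Of all its UMIs in kept cells, atrial-like cells held 60.1% in KO and 48.1% in WT hearts, trabecular-like cells 19.9% and 22.8%, and other ventricular cells 13.2% and 14.3%. Levels below are CPM of the UMIs summed per library and class, scaled by TMM factors. Atrial-like cells (KO n = 2533, WT n = 1452 cells) ran from 12700 to 32223 CPM in KO libraries with a median of 16362, against 13484 to 32202 CPM in WT libraries with a median of 17390. Trabecular-like cells ran from 9532 to 20844 CPM in KO libraries (median 15905), against 14120 to 22437 CPM in WT libraries (median 16359). In both muscle types the KO and WT ranges overlapped over most of their length, and the 2 types did not separate from each other.

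The remaining muscle of the ventricles lay below every trabecular-like value in both genotypes. Other ventricular cells ran from 716 to 2004 CPM in KO libraries with a median of 964, against 1179 to 1925 CPM in WT libraries with a median of 1393. A small Shox2-high node-like type ran from 109 to 435 CPM in KO libraries (median 225), against 215 to 1605 CPM in WT libraries (median 830). A Rspo3-high canal-like type ran from 99.3 to 521 CPM in KO libraries (median 227), against 212 to 3296 CPM in WT libraries (median 374). These 2 types were the muscle with the lowest mean Nppa in both genotypes. In KO libraries both lay below every value of the other ventricular cells, and in WT libraries the ranges overlapped.

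Of the chamber markers, some were highest in the type they were listed for and some were not. Sln, a regulator of the calcium pump, was at 1425 CPM in atrial-like, 2000 CPM in Shox2-high and 9.29 CPM in other ventricular cells of all libraries together. Myl2, the ventricular light chain, was at 12786 CPM in trabecular-like, 12188 CPM in other ventricular and 301 CPM in atrial-like cells. Irx3, a transcription factor of the trabecular conduction network, was highest in trabecular-like cells at 53.9 CPM, and Hey2, a factor of the compact wall, in other ventricular cells at 106 CPM. Shox2 reached 338 CPM in its type and Rspo3 496 CPM in its own. Against their lists, the atrial markers Stard10 and Bmp10 were at 115 and 9.30 CPM in atrial-like cells, with Stard10 higher in Shox2-high cells at 169 CPM and Bmp10 higher in trabecular-like cells at 28.8 CPM. The trabecular marker Cpne5 was at 42.1 CPM in trabecular-like and 186 CPM in Shox2-high cells, and the node marker Isl1 at 18.0 CPM in Shox2-high and 49.3 CPM in Rspo3-high cells.

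**Figure D1:**
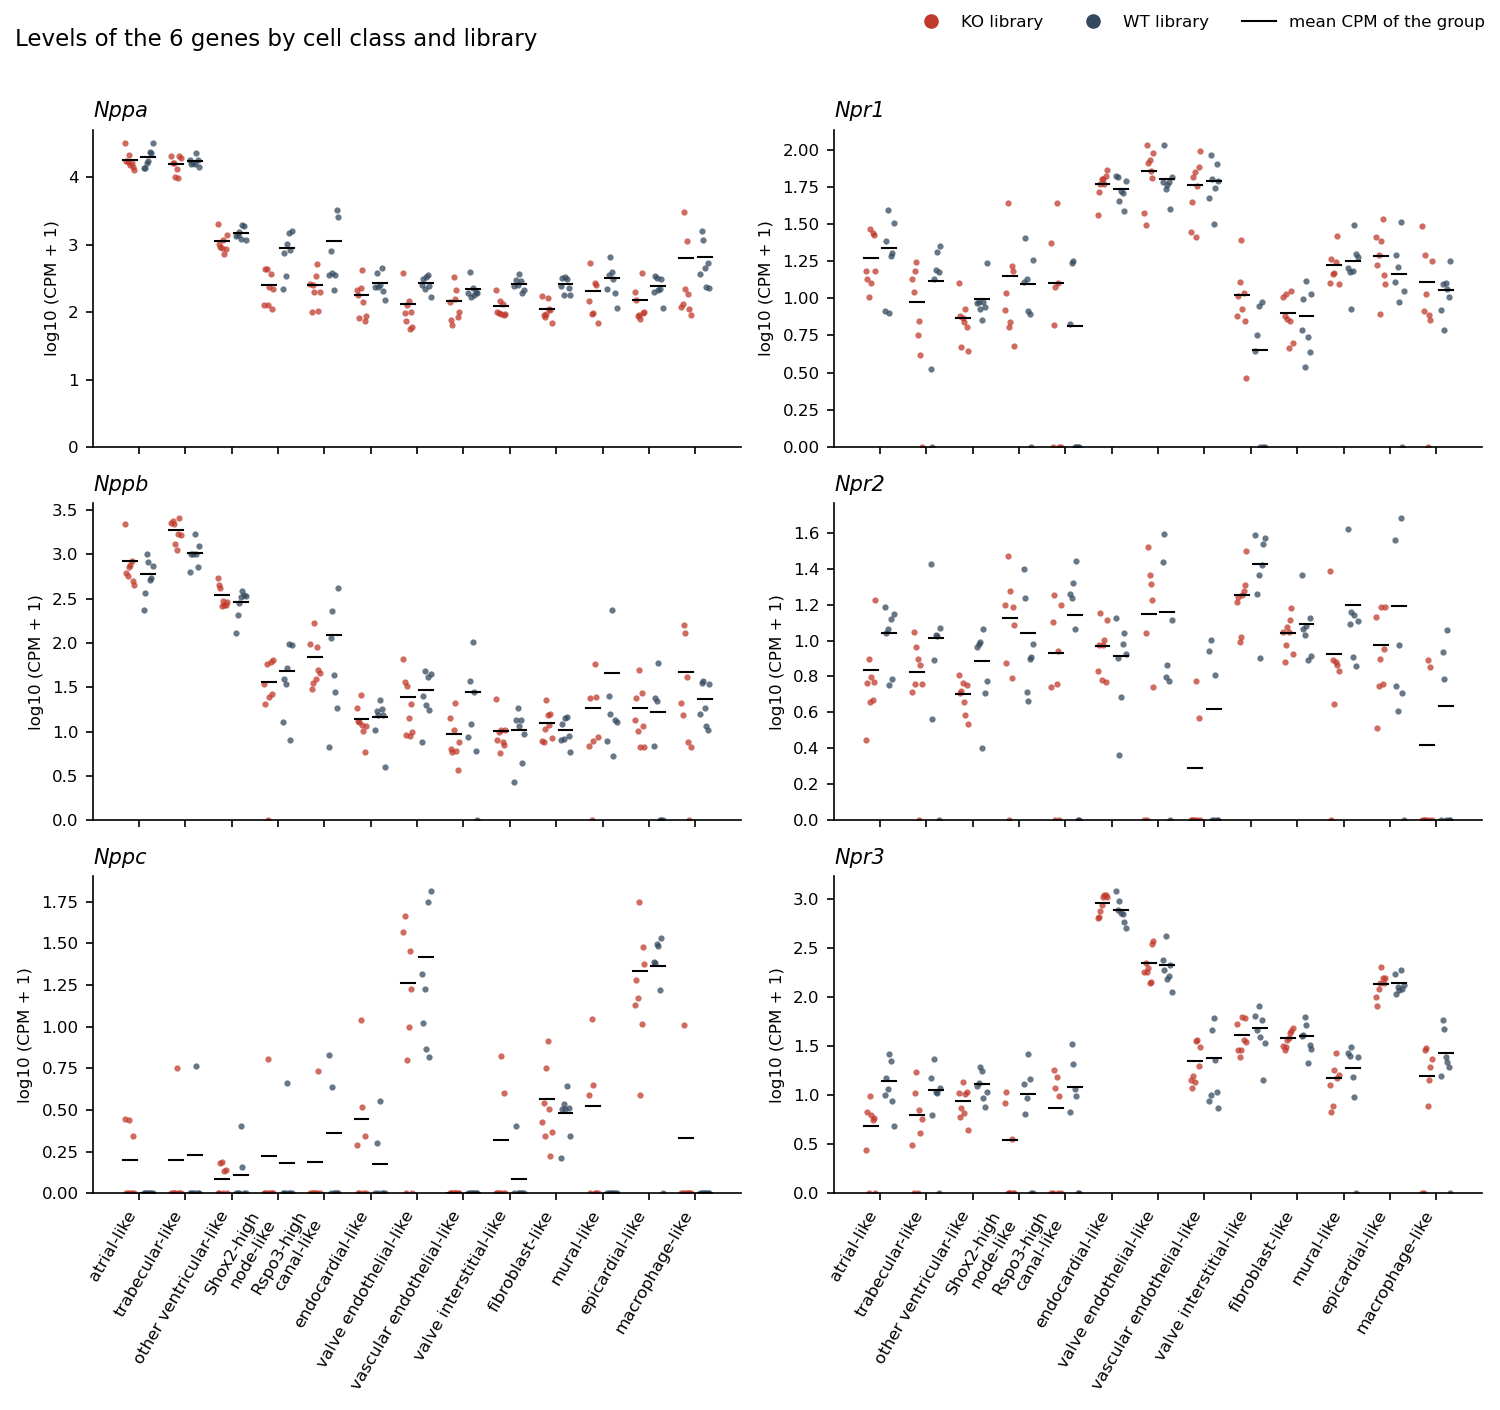
Level of each of the 6 genes as log10 (CPM + 1) on the vertical axis, by cell class on the horizontal axis, with 1 point per library for KO to the left of WT. Nppa and Nppb are highest in atrial-like and trabecular-like cells, Npr3 in endocardial-like cells, Npr1 in the 3 endothelial classes, and Nppc and Npr2 stay low in every class.

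The KO to WT contrast was tested with edgeR in 16 classes, from all kept cells to single muscle types, and adjusted over all genes tested in a class. Of 48 member and class pairs that passed the filter on low counts, 4 had an adjusted p under 0.05, against 0.411% of all gene and class pairs. The 4 pairs are not independent, because valve interstitial-like and fibroblast-like cells are contained in the other cells. All 4 concerned Nppa, and in all 4 it was lower in KO hearts. None of the 32 pairs of the other 5 members passed, and 6 of these had an unadjusted p under 0.05. The numbers called under DESeq2 and other settings are given with the dependence on processing, for all members together and not by gene.

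In heart muscle as a whole, Nppa averaged 5119.6 ± 893 CPM in KO libraries and 6328 ± 2364 CPM in WT libraries (SD, n = 8 and 7), a log2 difference of -0.32 ± 0.18 (SE, edgeR adjusted p = 0.373). There 0 of the 5 members tested passed, where 1.42% of genes passed. The values nearest 0 were those of the muscle with most of the transcript, at -0.17 ± 0.19 in atrial-like cells (edgeR adjusted p = 0.762) and -0.16 ± 0.16 in trabecular-like cells (adjusted p = 0.819). Other ventricular cells averaged 1118 ± 411 CPM in KO and 1498 ± 313 CPM in WT libraries, with a log2 difference of -0.44 ± 0.18 (adjusted p = 0.219). None of these 4 Nppa values passed, and in each the KO and WT libraries overlapped.

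In the Shox2-high node-like type, Nppa averaged 254 ± 136 CPM in KO libraries and 888 ± 522 CPM in WT libraries (SD, n = 8 and 7). The log2 difference was -1.87 ± 0.33 (edgeR adjusted p = 0.0101), in a class where 0.0946% of genes passed. The 2 lowest WT libraries, replicates 1 and 3, lay inside the KO range and the other 5 above it. The call held without any single library, with adjusted p between 0.00152 and 0.0317 over the 15 fits. It was lost with the flow cell as covariate (-2.64, adjusted p = 0.0530) and when the borders of the type moved. With a finer clustering the difference was -0.65 (adjusted p = 0.541), with the 6 members among the variable genes -0.90 (adjusted p = 0.226), and with called doublets kept -1.20 (adjusted p = 0.194).

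The Rspo3-high canal-like type had the most negative value of all, -2.23 ± 0.46, without passing (edgeR adjusted p = 0.124, unadjusted p = 4.66e-05). Its mean was 246 ± 137 CPM in KO and 1133 ± 1253 CPM in WT libraries, and the WT mean rested on replicates 6 and 7 at 3296 and 2544 CPM. The WT cells of these 2 libraries numbered 18 and 36. The 5 other WT libraries lay at 212 to 799 CPM, beside 99.3 to 521 CPM in the KO libraries. The value passed in the fits without WT replicate 3 (-2.40, edgeR adjusted p = 0.0292) and without WT replicate 4 (-2.43, adjusted p = 0.0167).

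**Figure D2:**
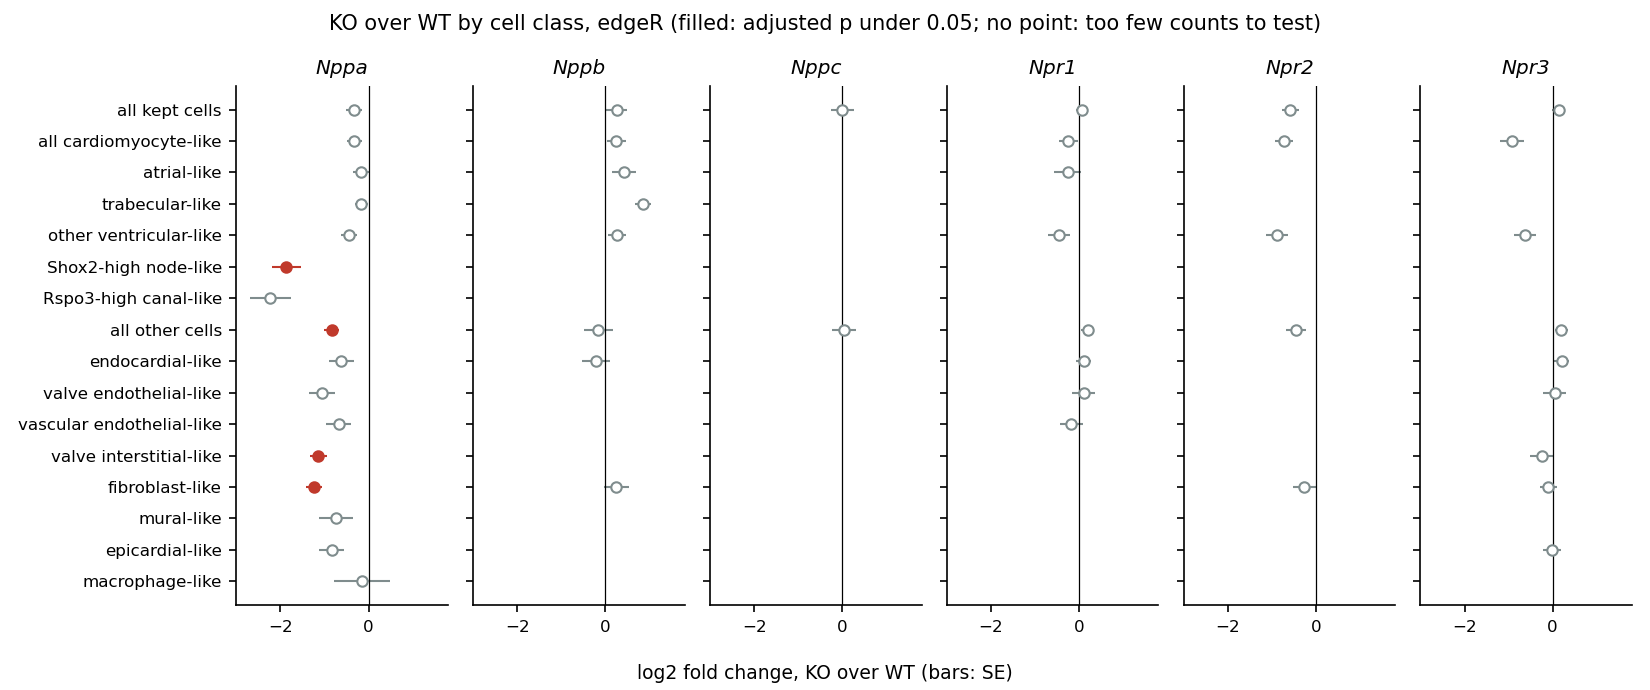
Log2 fold change of KO over WT with its SE on the horizontal axis, by cell class on the vertical axis, in 1 panel per gene. Filled red points passed an adjusted p of 0.05 and open grey points did not; the 4 filled points are Nppa in the Shox2-high type, in other cells together, in valve interstitial-like and in fibroblast-like cells.

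The other 3 calls lay outside the muscle. In all other cells together, Nppa ran from 114 to 243 CPM in KO libraries with a median of 164, against 197 to 388 CPM in WT libraries with a median of 334. Of these libraries, 2 in each group lay inside the range of the other. The log2 difference was -0.84 ± 0.17 (edgeR adjusted p = 0.0485), and 0.185% of genes passed in this class. It stayed under 0.05 in 3 of 15 fits that left out a library, those without WT replicates 1, 3 or 7, with adjusted p between 0.0314 and 0.120 over the 15.

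In valve interstitial-like cells, the mesenchymal cells inside the leaflets, Nppa ran from 89.8 to 211 CPM in KO libraries (median 97.6), against 189 to 369 CPM in WT libraries (median 247). Only KO replicate 1 reached into the WT range. The log2 difference was -1.14 ± 0.19 (edgeR adjusted p = 0.00496), and 0.333% of genes passed. In fibroblast-like cells it ran from 68.4 to 172 CPM in KO libraries (median 99.6), against 177 to 334 CPM in WT libraries (median 244). Every KO library lay below every WT library, which held for 0.0526% of the genes tested there, and the log2 difference was -1.24 ± 0.19 (edgeR adjusted p = 0.00453), with 0.147% of genes past the threshold.

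The remaining non-muscle classes had negative values that did not pass. They were -1.06 ± 0.29 in valve endothelial-like cells (edgeR adjusted p = 0.141), -0.84 ± 0.28 in epicardial-like (0.196), -0.74 ± 0.38 in mural-like (0.527, without KO replicate 4, which had under 10 such cells), -0.68 ± 0.29 in vascular endothelial-like (0.445), -0.62 ± 0.29 in endocardial-like (0.369) and -0.16 ± 0.63 in macrophage-like cells (0.962). In valve endothelial-like cells 7 of 8 KO libraries lay below every WT library and KO replicate 1 above them, and without that replicate the difference was -1.54 with an adjusted p of 0.000676. In epicardial-like cells it was -1.25 without KO replicate 6, with an adjusted p of 0.00679. Over the 15 fits that left out 1 library the adjusted p reached 0.284 in valve endothelial-like and 0.333 in epicardial-like cells.

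Within the KO flow cell the valve interstitial value was -1.25 and the fibroblast value -1.53, as values with no test, since WT replicate 5 is the only wild-type library there. Without WT replicates 1 to 4 they were -0.96 (edgeR adjusted p = 0.0153) and -1.14 (adjusted p = 0.0121). With counts summed over litters they were -0.92 (adjusted p = 0.379) and -1.11 (adjusted p = 0.259). Each of these values was below 0.

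Nppa outside muscle was set beside 16 abundant cardiomyocyte transcripts, such as Actc1, Myh6 and Tnnt2, as a measure of muscle RNA found in other droplets. All 16 were seen in the other cells of both genotypes, 0 of them at 0, and they made up 0.258% to 0.688% of UMIs there in KO libraries with a median of 0.353%, against 0.341% to 0.624% in WT libraries with a median of 0.507%. In muscle-like cells the same 16 showed a median log2 difference of -0.05, with 0 past the threshold. In fibroblast-like cells all 16 tested were below 0 with a median of -0.67, beside a median of -0.03 over all genes, and Tnni1 passed. In valve interstitial-like cells 15 of 15 tested were below 0 with a median of -0.68, beside -0.02 over all genes, and Myh7 and Tnni1 passed. The muscle transcripts of other genes thus had negative medians in the same classes as Nppa, and their part in the Nppa result was not tested.

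Relative to the muscle of the same library, Nppa in other cells stood at 2.45% to 5.25% of the cardiomyocyte level in KO libraries, against 1.97% to 8.52% in WT libraries. The KO minus WT difference of the log2 ratio was -0.56 (two-sided exact permutation test over 6435 splits, p = 0.0824). For the 16 abundant transcripts together the corresponding difference was -0.43 (exact permutation p = 0.0608). Nppa per abundant muscle UMI in other cells differed by -0.39 on the log2 scale (exact permutation p = 0.109), and in the muscle itself by -0.27 (exact permutation p = 0.0605). None of the 4 reached 0.05 with all libraries. The ratio of other cells to muscle had an exact permutation p of 0.0483 without WT replicate 6 and 0.00833 without WT replicate 7. Nppa per abundant muscle UMI in other cells had one of 0.0379 without KO replicate 3 and 0.0239 without KO replicate 5. With each of the 15 libraries left out in turn, the exact permutation p reached 0.170 for the first of these ratios and 0.199 for the second.

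By class, Nppa per abundant muscle UMI differed between KO and WT by -0.62 on the log2 scale in fibroblast-like cells (exact permutation test, p adjusted over 8 classes = 0.0267) and in valve interstitial-like cells by -0.53 (adjusted exact permutation p = 0.00249). In valve interstitial-like cells every KO library lay below every WT library by this measure. In endocardial-like cells the difference was -0.05 (adjusted exact permutation p = 0.869). Leaving out other cells with over 2% of their UMIs from the abundant transcripts gave -0.47 over all other cells (exact permutation p = 0.00202, not adjusted). That filter chose cells by the denominator of the same ratio, so this p cannot be read like the others. Without the filter the difference was -0.39 (exact permutation p = 0.109). Relative to muscle, the abundant transcripts differed by -0.74 in endocardial-like, -0.77 in valve endothelial-like and -0.63 in valve interstitial-like cells (adjusted exact permutation p = 0.0410 each). Fibroblast-like cells stood at -0.66 (0.0547). Nppa relative to muscle differed by -1.01 in fibroblast-like and -0.90 in valve interstitial-like cells (0.0323 each), and -1.07 in valve endothelial-like cells (0.0489). No other class passed.

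**Figure D3:**
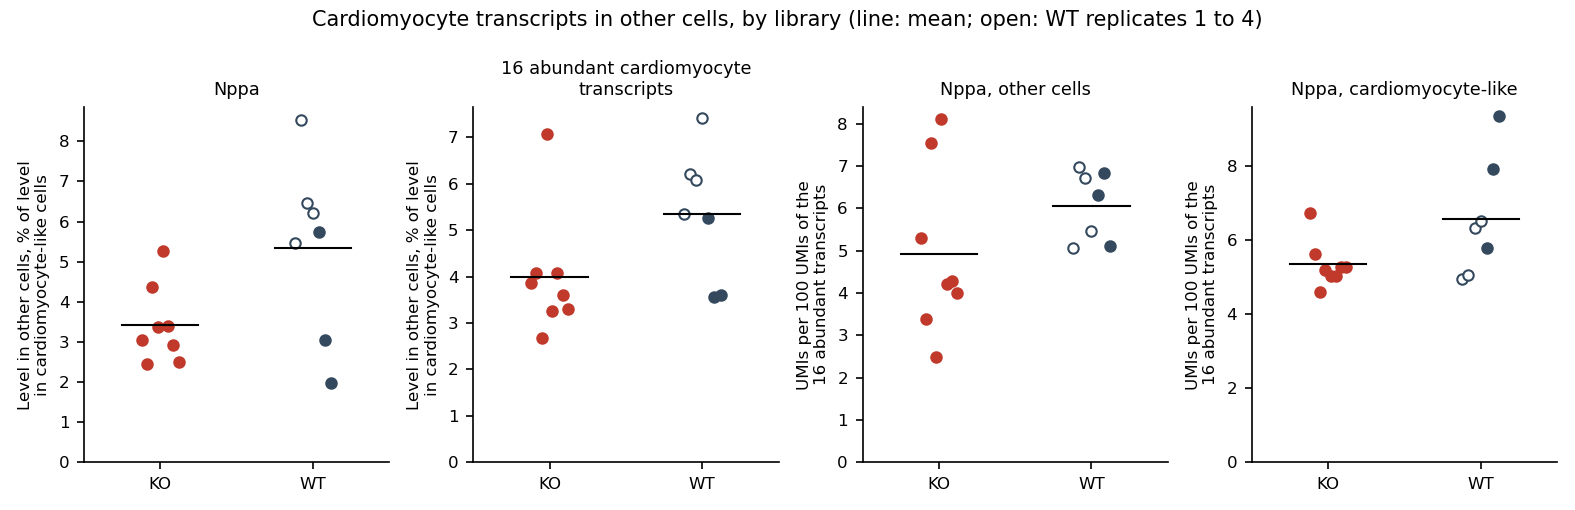
Muscle RNA in other cells, 1 point per library with the mean as a line, KO to the left of WT; open points are WT replicates 1 to 4. The first 2 panels give the level in other cells as a percent of the cardiomyocyte level (Nppa, then the 16 abundant transcripts) and the last 2 give Nppa UMIs per 100 UMIs of those transcripts (other cells, then muscle); KO and WT libraries overlap in each.

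In most classes fewer cells had an Nppa UMI in KO hearts after cells with at least 1000 UMIs had been thinned to 1000. Cells under 1000 UMIs were left out. This kept 8058 of 12258 KO and 6700 of 9304 WT cardiomyocyte-like cells, and 9881 of 15400 KO and 8563 of 11585 WT other cells. Of cardiomyocyte-like cells, 33.5% to 40.1% had an Nppa UMI in KO libraries, against 41.6% to 49.9% in WT libraries, with no overlap. The means were 36.5% ± 2.08 in KO and 45.8% ± 2.81 in WT libraries (SD, n = 8 and 7, exact permutation test, p adjusted over 59 member and class pairs = 0.00655). In other cells, which are not known as a source of Nppa, the means were 10.3% ± 2.96 and 22.6% ± 6.06 (adjusted exact permutation p = 0.00655). This background share in the other cells moved by more percentage points than the muscle share, and its part in the muscle share was not tested. The median depth before thinning was 1711.5 UMIs in KO and 2146.5 UMIs in WT muscle cells, and 1464 and 1803 UMIs in other cells. These medians include the cells under 1000 UMIs.

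Atrial-like cells with an Nppa UMI made up 83.3% ± 3.10 in KO and 88.2% ± 2.85 in WT libraries (adjusted exact permutation p = 0.0236). In other ventricular cells the shares were 22.0% ± 4.44 and 32.5% ± 5.33 (adjusted exact permutation p = 0.0168), while in trabecular-like cells they were 78.9% ± 7.18 and 79.6% ± 8.96 (adjusted exact permutation p = 0.930). Of the 59 pairs tested, 16 passed, all lower in KO, and 14 of these were Nppa in 14 of its 16 classes. The 14 are not independent, because all kept cells, cardiomyocyte-like cells and other cells contain the single classes. The largest unadjusted p among the 16 was 0.00839, and 0.967% of all gene and class pairs were lower in KO with a p as small. Without WT replicates 1 to 4, 0 of the 59 passed, with 8 KO against 3 WT libraries, and the differences were -8.82 percentage points in muscle and -8.49 in other cells. A stricter count, cells with at least 5 Nppa UMIs of 1000, gave 62.5% in KO and 70.1% in WT atrial-like cells, 56.7% and 55.8% in trabecular-like cells, 5.55% and 7.14% in other ventricular cells, and 0.328% and 0.352% in other cells.

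**Figure D4:**
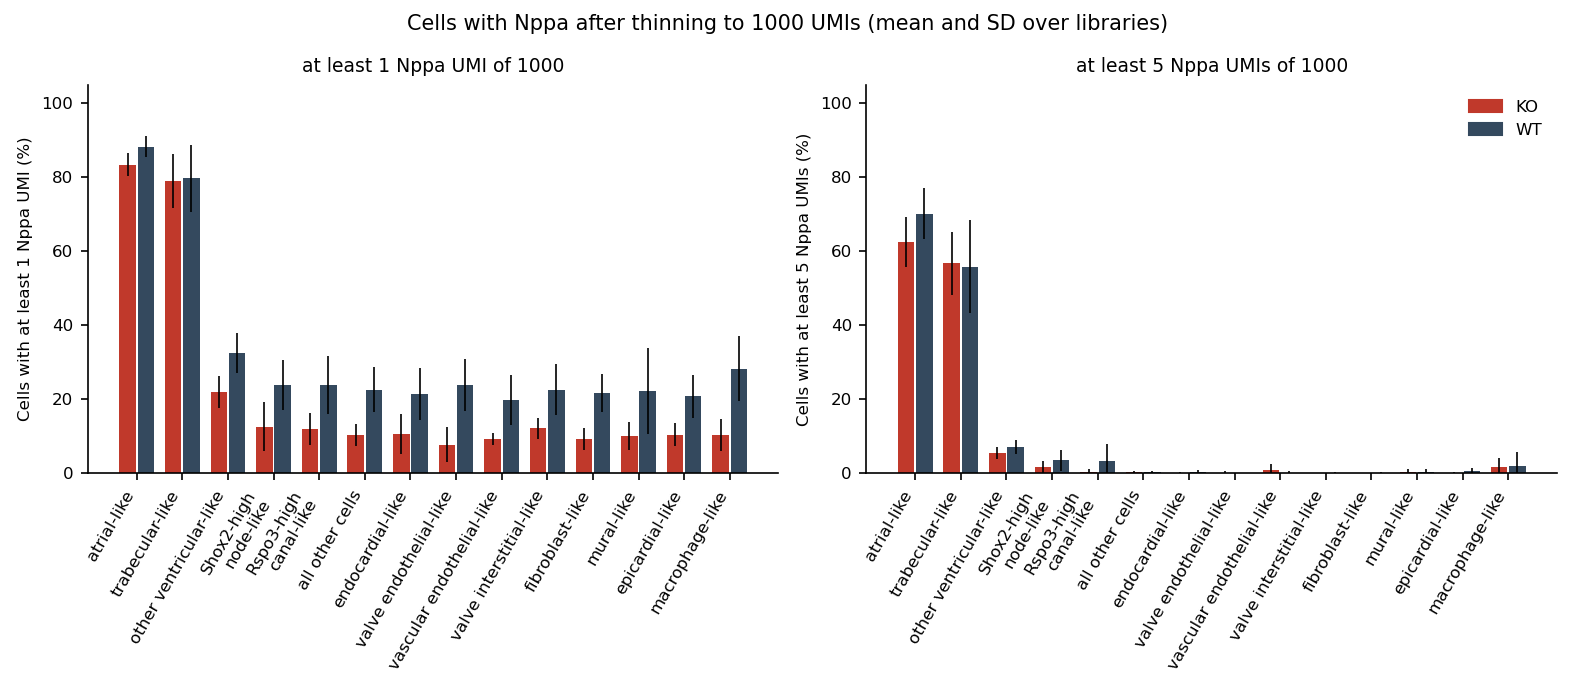
Percent of cells with at least 1 (left) or at least 5 (right) Nppa UMIs after thinning to 1000 UMIs, by class, as mean and SD over libraries, KO to the left of WT. Cells under 1000 UMIs were left out. At 1 UMI the other cells reach 10.3% in KO and 22.6% in WT libraries, and at 5 UMIs they fall to 0.328% and 0.352%.

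Nppb, the brain natriuretic peptide gene, followed the same chambers but with its highest level in the trabecular-like cells. Muscle-like cells held 95.7% of its UMIs in KO and 93.1% in WT hearts. Trabecular-like cells ran from 1121 to 2549 CPM in KO libraries (median 1946), against 626 to 1691 CPM in WT libraries (median 1005). Of 8 KO libraries, 5 lay above every WT library. The means were 1890 ± 524 CPM in KO and 1041 ± 352 CPM in WT libraries (SD, n = 8 and 7), a log2 difference of 0.85 ± 0.19 that did not pass (edgeR adjusted p = 0.112, unadjusted p = 0.000109). Without WT replicate 4 the edgeR adjusted p was 0.00971, and without KO replicate 5 it was 0.0331. Over the 15 fits that left out 1 library it ran from 0.00971 to 0.226.

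Elsewhere in muscle the 2 genotypes overlapped broadly for Nppb. Atrial-like cells ran from 445 to 2171 CPM in KO libraries (median 669), against 234 to 1006 CPM in WT libraries (median 543), and the log2 difference was 0.43 ± 0.28 (edgeR adjusted p = 0.571). Other ventricular cells ran from 257 to 539 CPM in KO libraries (median 291), against 128 to 380 CPM in WT libraries (median 329), with a difference of 0.26 ± 0.20 (edgeR adjusted p = 0.560). In that class the sign turned within the KO flow cell, with its 1 WT library, to -0.15. In other cells Nppb averaged 15.2 ± 7.06 CPM in KO and 16.6 ± 11.2 CPM in WT libraries, a log2 difference of -0.16 ± 0.32 (edgeR adjusted p = 0.856).

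The trabecular-like share of cells with an Nppb UMI was 52.6% ± 11.6 in KO and 38.2% ± 9.79 in WT libraries (SD, n = 8 and 7, adjusted exact permutation p = 0.0878). In other cells the share was 1.19% ± 0.486 and 1.51% ± 0.741 (adjusted exact permutation p = 0.570). Of the Shox2-high cells, 1.24% ± 1.06 and 3.91% ± 1.40 had an Nppb UMI (adjusted exact permutation p = 0.0101), from 7 KO and 16 WT cells. The KO share lies close to the share in other cells.

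The 2 muscle ligands had opposite signs in the trabecular-like cells, where the KO over WT values were -0.16 for Nppa and 0.85 for Nppb. Whether the 2 values differ was not tested. Gm13054, the antisense gene over Nppa, averaged 58.8 ± 27.3 CPM in KO and 41.0 ± 26.0 CPM in WT muscle (SD, n = 8 and 7), a log2 difference of 0.51 ± 0.34 (edgeR adjusted p = 0.473). In trabecular-like cells its difference was 1.03 ± 0.44 (edgeR adjusted p = 0.495).

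Nppc, the C-type peptide gene, was rare, with 137 UMIs in all kept KO cells and 114 in all kept WT cells. Epicardial-like and valve endothelial-like cells held most of them. Epicardial-like cells, the outer covering of the heart, ran from 2.89 to 55.0 CPM in KO libraries (median 15.9), against 0 to 33.1 CPM in WT libraries (median 23.5). Valve endothelial-like cells ran from 0 to 45.4 CPM in KO libraries (median 12.3), against 5.57 to 63.9 CPM in WT libraries (median 15.9). Epicardial-like cells held 32.8% of Nppc UMIs in KO and 35.1% in WT hearts, valve endothelial-like cells 23.4% and 32.5%, and in both classes KO and WT libraries overlapped.

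No Nppc UMI was counted in vascular endothelial-like cells of either genotype, which allows up to 1.38 CPM in KO and 2.27 CPM in WT hearts over the group (3 counts, counting error only). It was also at 0 in WT atrial-like, mural-like and macrophage-like cells. In other cells together Nppc averaged 4.07 ± 1.67 CPM in KO and 3.89 ± 1.23 CPM in WT libraries, a log2 difference of 0.05 ± 0.27 (edgeR adjusted p = 0.958).

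Among the receptors, Npr1, the cyclase for the peptides from muscle, had its highest mean levels in the 3 endothelial classes. Its UMIs were spread more widely. Endocardial-like cells held 32.99% of them in KO and 30.06% in WT hearts, valve endothelial-like cells 9.92% and 8.97%, and vascular endothelial-like cells 11.03% and 8.97%. Cardiomyocyte-like cells held 27.23% and 33.44%. Valve endothelial-like cells ran from 30.2 to 106 CPM in KO libraries (median 75.2), against 39.0 to 105.4 CPM in WT libraries (median 59.4). Endocardial-like cells ran from 35.6 to 72.0 CPM in KO libraries (median 59.98), against 37.8 to 65.1 CPM in WT libraries (median 51.6), and vascular endothelial-like cells from 24.8 to 96.0 CPM in KO libraries (median 60.1), against 30.6 to 90.9 CPM in WT libraries (median 60.8). The 3 endothelial classes did not separate from each other, and KO and WT libraries overlapped in each.

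The KO over WT values of Npr1 were small where the level was high, at 0.10 ± 0.27 in valve endothelial-like cells, 0.10 ± 0.17 in endocardial-like and -0.17 ± 0.27 in vascular endothelial-like cells (edgeR adjusted p = 0.937, 0.853 and 0.863). Cardiomyocyte-like cells averaged 9.49 ± 2.62 CPM in KO and 11.4 ± 4.66 CPM in WT libraries, with a value of -0.24 ± 0.22 (edgeR adjusted p = 0.612). Atrial-like cells had the highest mean of the muscle types, with ranges that overlapped theirs, at 17.8 ± 7.69 CPM in KO and 20.6 ± 11.6 CPM in WT libraries.

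Npr2, the receptor for the C-type peptide, had its highest mean in valve interstitial-like cells. There it ran from 8.85 to 30.4 CPM in KO libraries (median 16.7), against 6.95 to 37.7 CPM in WT libraries (median 25.2). It did not pass the filter on low counts there and was not tested. The ranges of other classes overlapped these, and single WT libraries reached 47.0 CPM in epicardial-like, 40.8 CPM in mural-like and 38.3 CPM in valve endothelial-like cells. In cardiomyocyte-like cells it ran from 3.84 to 6.17 CPM in KO libraries (median 5.08), against 4.06 to 11.1 CPM in WT libraries (median 8.62), and 5 of 7 WT libraries lay above every KO library. The log2 difference was -0.72 ± 0.20 (edgeR adjusted p = 0.0689, unadjusted p = 0.00148). It was -0.78 without WT replicate 4 (edgeR adjusted p = 0.0499) and -0.82 without WT replicate 6 (adjusted p = 0.0368). Over the 15 fits that left out 1 library the adjusted p ran from 0.0368 to 0.140. The share of muscle cells with an Npr2 UMI was 0.534% ± 0.182 in KO and 1.09% ± 0.383 in WT libraries (adjusted exact permutation p = 0.0176), from 42 of 8058 KO and 76 of 6700 WT cells. In other cells the share was 1.12% ± 0.256 and 1.26% ± 0.564 (adjusted exact permutation p = 0.799), so the muscle share lies at or under the share of cells outside muscle.

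Npr3, the clearance receptor, was the receptor with the sharpest cell class pattern. Endocardial-like cells, which line the chambers, held 78.3% of its UMIs in KO and 68.7% in WT hearts, and ran from 637 to 1111 CPM in KO libraries (median 960.0), against 512 to 1205 CPM in WT libraries (median 726). Valve endothelial-like cells ran from 138 to 377 CPM in KO libraries (median 189), against 112 to 424 CPM in WT libraries (median 187). Within each genotype the libraries of these 2 classes did not overlap. Epicardial-like cells ran from 81.4 to 205 CPM in KO libraries (median 138), against 108 to 188 CPM in WT libraries (median 128), and their range overlapped that of valve endothelial-like cells but not that of valve interstitial-like cells.

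The genotypes overlapped in each of these classes. The KO over WT value of Npr3 was 0.21 ± 0.17 in endocardial-like cells (edgeR adjusted p = 0.668), 0.04 ± 0.25 in valve endothelial-like (0.976) and -0.02 ± 0.20 in epicardial-like cells (0.994). Of endocardial-like cells, 53.7% ± 7.48 had an Npr3 UMI in KO and 49.4% ± 10.2 in WT libraries (adjusted exact permutation p = 0.591). In muscle, where the level was low, Npr3 averaged 6.80 ± 2.64 CPM in KO and 12.6 ± 5.78 CPM in WT libraries, with a value of -0.93 ± 0.27 that did not pass (edgeR adjusted p = 0.0854).

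Across the mean WT levels of 13 cell classes, the genes with the profile most like each member were found by Pearson's r on log2(CPM + 10), among 6797 genes. The points share libraries and class borders, and r is a description. For Nppa they were its antisense gene Gm13054 (r = 0.970), Nppb (0.941), the transcriptional coregulator Cited1 (0.941), Myeov2 (0.934) and the mitochondrial creatine kinase Ckmt2 (0.929). For Nppb they were Cited1 (0.969), Afg3l2 (0.964), Fgf13 (0.955), Ckmt2 (0.952) and Nppa (0.941). For Nppc they were Lsr (0.919), Pkhd1l1 (0.914), Prrt4 (0.874), Fis1 (0.850) and Pcsk5 (0.847). For Npr1 they were Cmtm8 (0.938), Rasip1 (0.930), the endothelial nitric oxide synthase Nos3 (0.919), Myct1 (0.917) and the connexin gene Gja4 (0.917). For Npr2 they were Fam168a (0.931), Bag5 (0.915), the fibrillin gene Fbn2 (0.911), Fgfrl1 (0.908) and Sra1 (0.906). For Npr3 they were Prr15 (0.939), Gpr126 (0.936), Dhx57 (0.917), Zscan26 (0.908) and the angiopoietin receptor gene Tek (0.907).

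Peptide-processing enzymes, cyclic GMP phosphodiesterases and effectors formed a list of 27 pathway gene symbols. Among them were Corin and Furin, which cut the precursors, and Prkg1, the cyclic GMP-dependent kinase. The count table held 23 of the symbols. Gucy1a1, Gucy1b1 and Irag1 were there only under the older symbols Gucy1a3, Gucy1b3 and Mrvi1, which the list also held. In all kept cells 22 were tested in the KO to WT contrast, 0 passed (edgeR), where 0.208% of all genes passed, and the median log2 difference was -0.08, beside -0.02 over all genes tested. In cardiomyocyte-like cells it was -0.01 over 19 tested genes, beside -0.03 over all genes. In endocardial-like cells it was -0.06 over 13 tested, beside -0.01. In none of the 16 classes did a gene of this list pass, beside 0.411% of all gene and class pairs.

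A list of 29 transcription factors known to act on Nppa or Nppb, such as Gata4, Nkx2-5, Tbx5 and the repressor Tbx3, gave 0 called genes in muscle, where 1.42% of all genes passed, with a median log2 difference of 0.04 over 28 tested and -0.03 over all genes. Over all 16 classes 1 gene passed. Tbx20, a T-box factor of muscle and valve, was lower in KO epicardial-like cells with a log2 difference of -0.98 ± 0.18 (edgeR adjusted p = 0.0113), where 0.557% of genes passed.

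Since Nppa and Nppb differ between chambers, their levels over all muscle depend on the mix of muscle types. Atrial-like cells made up 20.5% ± 4.26 of cardiomyocyte-like cells in KO and 15.97% ± 7.57 in WT libraries (SD, n = 8 and 7, exact permutation test, p adjusted over 5 types = 0.417). Trabecular-like cells made up 5.97% ± 1.94 and 7.53% ± 4.09 (adjusted exact permutation p = 0.653), and other ventricular cells 61.7% ± 4.00 and 59.6% ± 15.8 (adjusted exact permutation p = 0.836). The Shox2-high type made up 4.89% ± 1.63 and 4.65% ± 2.167, and the Rspo3-high type 4.45% ± 0.941 and 3.26% ± 1.48 (adjusted exact permutation p = 0.836 and 0.409). No share differed past 0.05 by this test. WT replicate 4 stood apart with 26.7% other ventricular cells. Its haemoglobin stood at 5.77%, against 0.0875% to 1.69% in the other libraries. The 5 types leave out mixed cardiomyocyte-like cells. A mixed cluster led by Col3a1 held 247 KO and 264 WT cells, and one led by haemoglobin genes 63 KO and 424 WT cells. Mixed cells held 2.498% of Nppb UMIs in KO and 13.8% in WT hearts, and count in the cardiomyocyte-like totals. Whether the low share in WT replicate 4 came from mixing was not tested.

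Within the KO libraries the 2 alleles were compared in the same way, tm4b over tm4a, with 4 libraries each. Of 47 member and class pairs tested with edgeR, 5 passed, against 7.02% of all gene and class pairs, a rate not far from that of all genes. Npr3 was higher in tm4b hearts in all kept cells, at 139 ± 17.3 CPM against 96.1 ± 10.3 CPM in tm4a hearts, a log2 difference of 0.52 ± 0.10 (edgeR adjusted p = 0.00994), where 15.3% of genes passed. In endocardial-like cells it was at 1048 to 1111 CPM in tm4b libraries, against 637 to 872 CPM in tm4a libraries, without overlap, with a difference of 0.56 ± 0.13 (edgeR adjusted p = 0.0496, 0.79% of genes), and it passed in 1 of 8 fits that left out a KO library. The WT range of 512 to 1205 CPM spanned both alleles.

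Of the muscle ligands, Nppa was lower in tm4b hearts in 1 of 16 classes tested and Nppb in 2 of 7. In cardiomyocyte-like cells as a whole, where 12.7% of genes passed, neither passed, at -0.31 (edgeR adjusted p = 0.0651) and -0.47 (adjusted p = 0.0700). Nppa in atrial-like cells lay at 12700 to 16150 CPM in tm4b libraries, against 16573 to 32223 CPM in tm4a libraries, with a log2 difference of -0.60 ± 0.13 (edgeR adjusted p = 0.0100), where 5.02% of genes passed. Nppb in other ventricular cells lay at 264 to 293 CPM in tm4b libraries, against 257 to 539 CPM in tm4a libraries, with a difference of -0.58 ± 0.14 (edgeR adjusted p = 0.0161, 11.5% of genes). In all kept cells Nppb was at 206 ± 29.0 CPM in tm4b and 322 ± 113 CPM in tm4a libraries, with a difference of -0.66 ± 0.20 (edgeR adjusted p = 0.0419). KO replicate 1, the tm4a library of litter 5, was the highest of the KO libraries for each of these 3, and the differences were smaller without it. They were then -0.35 for Nppa in atrial-like cells (edgeR adjusted p = 0.0188), -0.43 for Nppb in other ventricular cells (adjusted p = 0.0492) and -0.38 for Nppb in all kept cells (adjusted p = 0.0601).

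**Figure D5:**
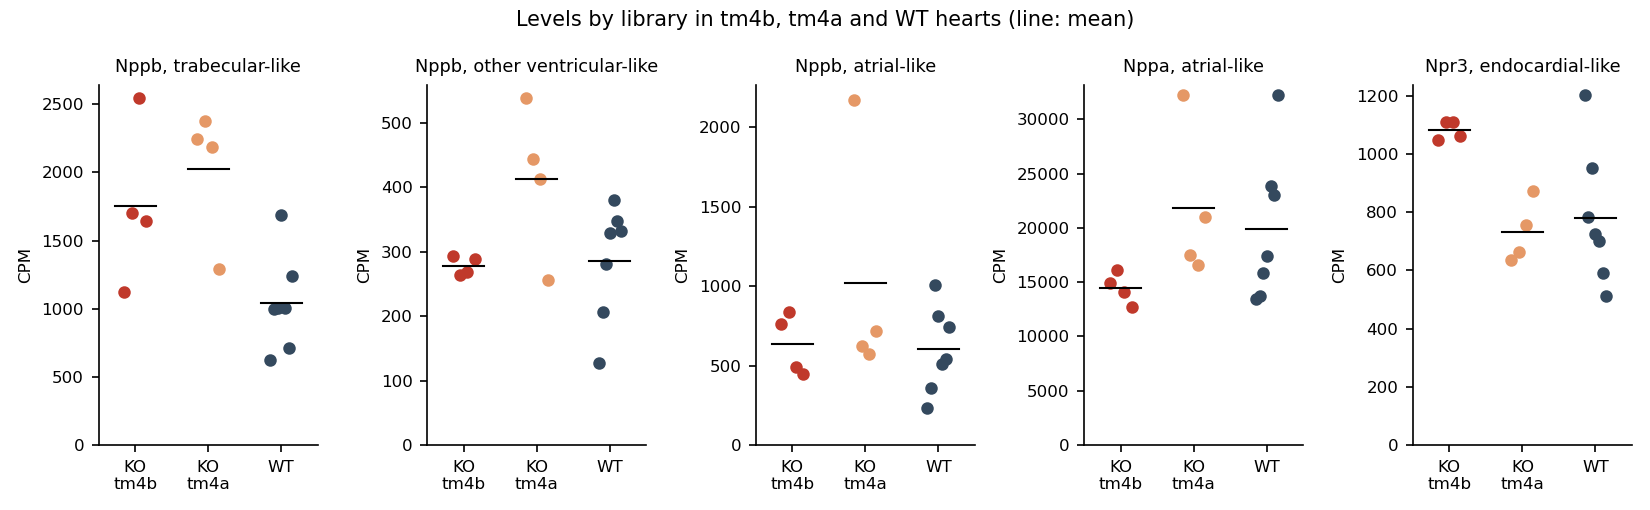
CPM per library in tm4b, tm4a and WT hearts, with the mean as a line, for the members with a difference between the alleles. In endocardial-like cells Npr3 lies at 1048 to 1111 CPM in tm4b and 637 to 872 CPM in tm4a libraries, both inside the WT range of 512 to 1205 CPM.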

How the data were processed

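The members, the gene lists and the tests were chosen with earlier results of these data known. The authors deposited raw UMI counts for each gene and cell barcode. The tools bcl2fastq 2.17 and Seurat 2.1 and the build mm10 are named, without their roles, per the submitters' processing notes. The table holds 55152 barcodes, which had been filtered before deposit, and 0 columns belonged to no sample. For WT replicate 4, the title was used, since its description has number 3.

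Cells with at least 300 genes were kept (50899). Scrublet in scanpy 1.11.5 called 142 of them (0.279%), too few to have worked; these were removed, and removal of the 5% highest scores per library was an alternative. The other 50757 cells were clustered on 2000 variable genes without the members (30 components, 20 neighbours, Leiden resolution 1.0 with leidenalg 0.10.2 and igraph 0.11.9), giving 23 clusters, and cardiomyocyte-like cells again on 1500 variable genes without 597 cell cycle genes, giving 13. A cluster was named from fixed marker lists if at least 3 markers were over 2-fold higher than in other cells; 2210 cells led by haemoglobin genes stayed unnamed, and some cardiomyocyte-like cells were mixed. The fixed list for node and atrioventricular canal named 2 muscle types, told apart here by Shox2 and Rspo3.

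UMI counts were summed per library and class, leaving out libraries with under 10 cells, and tested with edgeR 4.0.16 in R 4.3.3 (quasi-likelihood test, TMM factors, filterByExpr, Benjamini-Hochberg adjustment over all genes of the class, threshold 0.05). On simulated counts with known changes, and without litter or flow cell effects, the fit recovered 4-fold changes. The outcome for simulated 2-fold changes is not reported here. Levels are CPM over TMM-scaled totals. Ratios and shares were compared with exact permutation tests (two-sided). The share test was also run on every gene, as a background added after the members' results were seen. All 6 members are named with values; from the pathway and regulator lists only genes past the threshold are named with values, at most 5 by p. The 5 most similar profiles per member were taken among genes with at least 50 CPM in a class. UMI intervals and limits cover counting error only. Alternatives were DESeq2 1.42.0, RLE factors, no filter, flow cell, litter, replicate block, left-out libraries, doublets and clustering. Replicate numbers come from different litters in the 2 genotypes and do not pair libraries. The KO to WT values of the chromosomal neighbours of Nppa and Nppb are not reported here.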

Additional observations from a re-analysis of the deposited data

Results flagged for a closer look

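In groups of 7 or 8 libraries, a library was set apart when its gap to the nearest of the others was large against the range of the group. This occurred in 17 of 88 groups of a member and a class tested. Chance gives about 1 in 20 for independent groups. Here the classes are nested and share libraries, so the 17 groups cannot be set against that rate. KO replicate 1, the tm4a library of litter 5, was the high library in 6 of them. Its Nppa was 32223 CPM in atrial-like cells, where the other KO libraries lay at 12700 to 20991 CPM. It was 383 CPM in valve endothelial-like cells (others 54.9 to 143) and 211 CPM in valve interstitial-like cells (others 89.8 to 146). Its Nppb was 2171 CPM in atrial-like cells (others 445 to 835), 840.3 CPM in cardiomyocyte-like cells (others 381 to 548) and 488 CPM in all kept cells (others 166 to 282).

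Nppa was also set apart at 422 CPM in endocardial-like cells of KO replicate 5 (others 71.9 to 225), at 382 CPM in epicardial-like cells of KO replicate 6 (others 77.9 to 194), at 3003 CPM in macrophage-like cells of KO replicate 3 (others 89.7 to 1128) and at 391 CPM in vascular endothelial-like cells of WT replicate 2 (others 164 to 224). Nppb in other cells was high in KO replicate 4 at 31.3 CPM (others 7.83 to 17.2) and in WT replicate 4 at 40.1 CPM (others 6.82 to 17.4). Nppc in all kept cells was 3.88 CPM in KO replicate 4 (others 1.20 to 2.41). Npr1 was 20.9 CPM in cardiomyocyte-like cells of WT replicate 7 (others 6.44 to 11.8) and 16.2 CPM in its other ventricular cells (others 6.15 to 8.51). Npr2 in other cells was 25.8 CPM in WT replicate 1 (others 6.69 to 12.7), and Npr3 in valve endothelial-like cells was 424 CPM in WT replicate 3 (others 112 to 238).

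The alleles differed by edgeR in 5 pairs. The log2 difference of tm4b over tm4a was -0.60 for Nppa in atrial-like cells, -0.66 for Nppb in all kept cells, -0.58 for Nppb in other ventricular cells, 0.52 for Npr3 in all kept cells and 0.56 for Npr3 in endocardial-like cells. Leaving out each KO library in turn, these were called in 6, 1, 7, 8 and 1 of 8 fits. The alleles come from different litters and cannot be told apart from them.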

How the results depend on the processing

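The number of member and class pairs called in KO over WT, 4 as reported, was 8 with DESeq2 and 8 without the top 5% of doublet scores. It was 7 without the filter on low counts, 2 with counts summed per litter and 0 with the flow cell as covariate. It was 3 with the replicate number as a block, which adds no pairing, and 3 to 6 without 1 library. In tm4b over tm4a, 5 pairs were called, and 1 to 6 without 1 library. The Nppa calls in valve interstitial-like and fibroblast-like cells held in 9 of 12 alternatives and all 15 left-out libraries, those in other cells in 6 of 12 and 3 of 15, and those in the Shox2-high type in 8 of 12 and 15 of 15. The 12 alternatives include the fit within the KO flow cell, which has 1 WT library and gives no usable test.

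Without WT replicates 1 to 4 the log2 ratio of Nppa in other cells to muscle turned to 0.022. It was -0.75 without the top doublet scores, -0.98 without other cells over 2% muscle UMIs, and -0.77 to -0.42 without 1 library. Nppa per abundant muscle UMI was -0.47 without those cells, which were chosen by the same muscle UMIs. It was -0.57 with Actc1 alone, and -0.51 to -0.26 without 1 library. The share pairs called, 16, were 14 to 18 without 1 library and 0 without WT replicates 1 to 4. Chamber types with a different share numbered 0, and 0 to 1 without 1 library.

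Signs turned for Nppa in atrial-like cells per litter (0.060), and in macrophage-like cells without the top doublet scores (0.23), with the flow cell covariate (1.32), within the KO flow cell (1.34) and without WT replicates 1 to 4 (0.81; -1.32 to 0.22 without 1 library). Nppb in other ventricular cells turned with the flow cell covariate (-0.15), within the KO flow cell (-0.15) and without WT replicates 1 to 4 (-0.047). Without these 4, chamber shares turned to -0.59 (atrial-like), 0.93 (trabecular-like) and -2.81 percentage points (other ventricular; -3.42 to 4.53 without 1 library, Shox2-high type -0.22 to 0.83). The cause was not tested. Genes called in other cells, 23, were 294 with DESeq2, 714 without WT replicates 1 to 4, 2 with the block, and 2 to 235 without 1 library. Without 1 library those in the Shox2-high type, 4, were 2 to 36, in valve interstitial-like cells, 24, were 7 to 82, and in fibroblast-like cells, 14, were 1 to 93, the highest each time without WT replicate 3. The filter on low counts left Nppc tested in 2 classes, Npr2 in 5, and Npr1 and Nppb in 8.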
